A study of Mus musculus with 8 samples.

Results

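The data described here are the transcripts of iris dilator muscle nuclei from mice whose pupils were kept dilated, set against the same nuclei from untreated mice. Members were the nuclei that carried the deposited annotation "dilator muscle" in the 3 untreated and 2 dilated libraries. They numbered 8230 of 34357 nuclei in the series, 4357 of them untreated and 3873 dilated. UMIs (unique molecular identifiers, each standing for 1 captured transcript) were summed over these nuclei in each library, and 15395 genes had enough UMIs to be tested.

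Single nucleus RNA-seq was performed on irises of adult female albino mice, together with some ciliary body. For dilation, mice held in darkness received hourly eye drops of phenylephrine, an agonist of alpha-1 adrenergic receptors, with cyclopentolate, an antagonist of muscarinic receptors. The drops were repeated for several hours before the eyes were taken, so the levels follow sustained dilation. For constriction (3 libraries), mice held in light received hourly drops of pilocarpine, a muscarinic agonist, and untreated mice received no drops. The drug, the darkness and the contraction of the muscle therefore came together in the dilated libraries and cannot be told apart. Each library pooled irises of several eyes, and the p-values measure the spread between such pools.

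The dilator muscle is a thin sheet of myoepithelial cells at the back of the iris. It derives from the same neural ectoderm as the iris pigment epithelium (iris PE) that lies against it, keeps part of a pigment cell program in albino animals, and shortens radially when alpha-1 adrenergic receptors are engaged. Immediate early genes are transcription factor and signaling genes whose transcription rises quickly after calcium, ERK (a MAP kinase) or cAMP signals, before any new protein is needed. Genes under serum response factor and YAP/TAZ respond to actin and to tension, and are well known in smooth muscle.

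The dilator muscle nuclei summed to between 1604121 and 7105128 UMIs in the untreated libraries and to 10129055 and 4990598 UMIs in the dilated libraries. Untreated replicate 1 held only 403 of the nuclei, against 1306 to 2567 in the other 4 libraries. Median UMIs per nucleus lay between 3344.5 and 3926 in all 5 libraries. The dilator muscle share of all nuclei was 27.2 to 32.5% in untreated and 35.1 to 35.2% in dilated libraries. Untreated replicate 1 and dilated replicate 1 shared 63 cell barcodes (4.26% of the nuclei of the smaller library), and 58 dilator muscle nuclei of the 5 libraries had a barcode found in another library. Leaving them out gave 1111 raised and 953 lowered transcripts. The 8 dilator muscle markers were detected in every library and their sum was 5703 to 5960 CPM (UMIs per 1000000) in untreated and 4230 and 4621 CPM in dilated libraries. These sums are without TMM, the scaling used in the fit, and whether they differ after it was not tested. Summed markers of leukocytes (8.02 to 18.1 CPM), endothelial cells (21.1 to 78.5 CPM), iris PE and ciliary epithelium (51.9 to 78.6 CPM), sphincter muscle (86.2 to 160.2 CPM) and stroma 1 without *Dct* (11.1 to 29.3 CPM) were low in the dilator muscle nuclei of these 5 libraries. *Dct*, a stroma 1 marker that the dilator muscle also expresses, is given with the pigment genes.

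Dilation was accompanied by a broad change in the transcripts of the dilator muscle. A transcript was called raised or lowered when its log2 fold change passed 0.6 in size at an adjusted p under 0.05 (edgeR quasi-likelihood test, Benjamini-Hochberg over all genes). By this rule 1109 transcripts were raised (7.2%) and 945 were lowered (6.14%) of 15395 tested (13.3% in both directions together), and the median log2 fold change of all genes tested was 0.02. Among those raised, 194 exceeded a log2 fold change of 2 and 64 exceeded 3, and among those lowered 91 fell by more than 2 and 16 by more than 3. Raised transcripts came from gene bodies with a median length of 22627 bases, lowered ones from gene bodies of 40852 bases, against 26891 bases for all genes tested. The 2 groups of libraries did not overlap for 1079 raised and all 945 lowered transcripts, while the same groups did not overlap for 47.2% of all genes tested, called or not, and 13.1% of all genes were called and did not overlap. With 1 library left out the calls in both directions numbered 1086 (without dilated replicate 2), 1143 (without untreated replicate 2), 1203 (without untreated replicate 3), 1419 (without dilated replicate 1) and 1989 (without untreated replicate 1), against 2054 with all. Scaling by library size alone, without TMM, moved the median of all genes by -0.18 (log2) and turned the split to 726 raised and 1532 lowered.

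The library numbers in the titles form separate runs. Within the first run (untreated replicate 1, dilated replicate 1) and within the later run (untreated replicates 2 and 3, dilated replicate 2), 1095 of the 1109 raised and all 945 lowered transcripts moved in the called direction in both, which for transcripts whose groups do not overlap follows from that alone. Constriction changed far fewer transcripts in the same nuclei: 1 gene of 15395 (0.0065%) was called against the untreated libraries, although 3 libraries stood in each group. That gene was *Serpina3n*, a secreted inhibitor of serine proteases, which measured 15.9, 11.5 and 15.9 CPM in the constricted, 3.74, 1.55 and 0.791 CPM in the untreated and 48.6 and 54.3 CPM in the dilated libraries. Its constricted log2 fold change of 3.26 (adjusted p = 0.0087) no longer passed without untreated replicate 2 (adjusted p = 0.175), untreated replicate 3 (adjusted p = 0.0829) or constricted replicate 2 (adjusted p = 0.056). The dilated against the constricted libraries gave 1610 calls (10.5%).

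The largest changes were taken among called transcripts of at least 20 CPM in 1 condition whose untreated and dilated libraries did not overlap. Gene models named only by a clone number were left out. Under these limits the largest rises included *Hk2*, *Pde10a*, *Thbs1*, *Egr1*, *Btg2*, *Fos*, *Tnfrsf12a*, *Nr4a3*, *Serpina3n*, *Tmem158* and *Nr4a2*. The largest falls were in *Emilin3*, *Adamts18*, *Plk5*, *Adarb2*, *Xrra1*, *Kif28*, *Tbxas1*, *Gucy2f*, *Alpl*, *Cracr2a*, *Il1rapl2* and *L3mbtl4*. These rises reached further than the falls on the log2 scale, from 4.86 to 6.35 against -2.05 to -2.73. Values per library follow with the group to which each gene belongs. Every count of raised or lowered members below is to be read against 7.2% raised and 6.14% lowered among all genes tested. The lists were written with earlier results of these data known, so part of an excess over these shares can come from that choice.

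**Figure D1:**
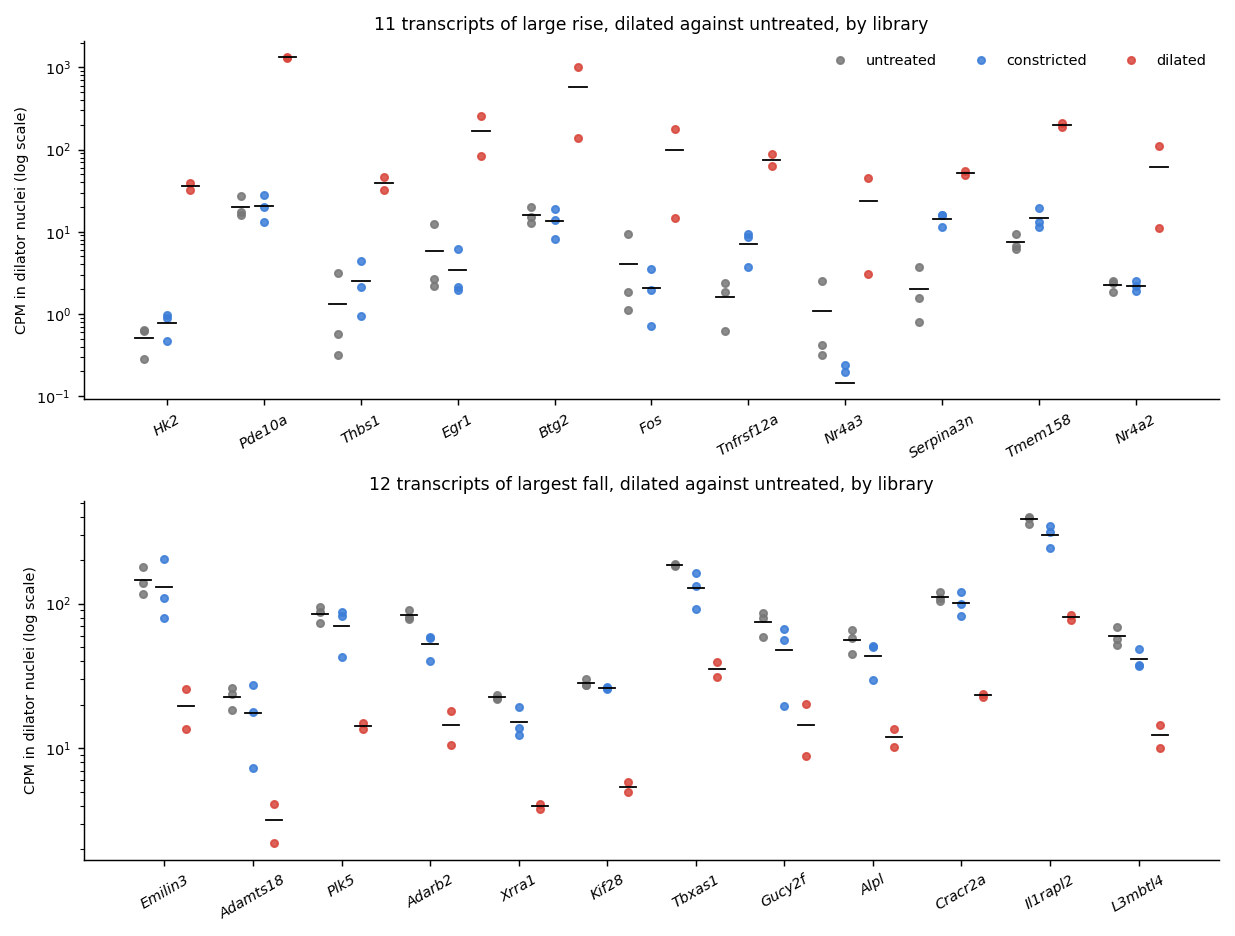
Level in CPM (log axis) of 11 of the largest rises and the 12 largest falls in dilator muscle nuclei, 1 point per untreated, dilated and constricted library and a short line at each group mean, with libraries at 0 CPM not drawn. Only called transcripts of at least 20 CPM in 1 condition were eligible. Both dilated libraries also had to lie beyond all 3 untreated libraries, so the gap between these groups is given by the choice. *Pde10a* reads 1305 and 1338 CPM in the dilated libraries.

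Immediate early transcription factors formed the list with the highest share raised. Of 24 members measured, 20 were raised (83.3%, against 7.2% of all genes) and 0 lowered, with a median log2 fold change of 2.59. Without dilated replicate 2 the raised members numbered 13. The promoters of some raised members, and those of *Btg2* and *Pde10a*, are shown as examples. Each run holds the 250 bases before the annotated start (RefSeq, GRCm38.p6), 5′ to 3′ on the gene's own strand. Capitals mark TGACG or its reverse complement CGTCA, the core of a cAMP response element. For *Pde10a* the start used is the first listed of 2 and lies inside the gene body.
Fos (chr12:85473640-85473889, plus strand): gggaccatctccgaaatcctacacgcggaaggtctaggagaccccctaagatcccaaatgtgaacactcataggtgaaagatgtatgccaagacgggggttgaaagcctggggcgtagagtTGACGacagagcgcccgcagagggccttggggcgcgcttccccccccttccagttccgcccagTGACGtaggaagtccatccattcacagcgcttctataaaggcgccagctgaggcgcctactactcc
Junb (chr8:84978749-84978998, minus strand): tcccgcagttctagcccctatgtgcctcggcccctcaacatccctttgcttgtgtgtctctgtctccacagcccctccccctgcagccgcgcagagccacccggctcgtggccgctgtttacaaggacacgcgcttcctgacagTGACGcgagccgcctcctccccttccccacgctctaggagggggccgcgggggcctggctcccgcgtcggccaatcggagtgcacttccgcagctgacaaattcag
Nr4a1 (chr15:101266596-101266845, plus strand): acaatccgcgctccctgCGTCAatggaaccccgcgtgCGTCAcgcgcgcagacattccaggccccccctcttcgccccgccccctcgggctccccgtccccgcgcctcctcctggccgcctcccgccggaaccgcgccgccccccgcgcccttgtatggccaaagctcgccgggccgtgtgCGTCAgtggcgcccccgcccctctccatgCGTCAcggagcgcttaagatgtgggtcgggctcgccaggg
Nr4a2 (chr2:57124004-57124253, minus strand): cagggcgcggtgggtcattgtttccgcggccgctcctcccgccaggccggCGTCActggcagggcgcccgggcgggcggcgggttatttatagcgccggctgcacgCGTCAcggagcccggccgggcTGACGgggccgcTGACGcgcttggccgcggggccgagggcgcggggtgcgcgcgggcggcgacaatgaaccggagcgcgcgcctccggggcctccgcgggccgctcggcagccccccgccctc
Btg2 (chr1:134079156-134079405, minus strand): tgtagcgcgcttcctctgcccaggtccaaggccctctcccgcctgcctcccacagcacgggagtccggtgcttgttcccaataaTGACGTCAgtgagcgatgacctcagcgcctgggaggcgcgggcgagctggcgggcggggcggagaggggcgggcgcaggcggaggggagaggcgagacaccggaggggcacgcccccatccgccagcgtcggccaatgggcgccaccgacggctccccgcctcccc
Pde10a (chr17:8801495-8801744, plus strand): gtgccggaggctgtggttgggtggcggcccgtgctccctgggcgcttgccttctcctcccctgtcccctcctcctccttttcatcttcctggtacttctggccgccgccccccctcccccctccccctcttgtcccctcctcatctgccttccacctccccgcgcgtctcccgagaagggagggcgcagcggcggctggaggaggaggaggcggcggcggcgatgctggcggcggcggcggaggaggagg
The search found 4 matches each before *Nr4a1* and *Nr4a2*, 2 before *Fos*, 1 before *Junb* and none in the window shown for *Pde10a*. For *Btg2* it found 2, which are both strands of a single palindrome, TGACGTCA. The *Pde10a* window lies inside the gene body and that of the other start is not shown, so it does not describe the upstream promoter. A promoter entry existed for 11177 of the 15395 genes. The letters occurred in 28.5% of those promoters, in 34.9% of the promoters of raised and in 21.6% of those of lowered transcripts. Among raised immediate early members with an entry they occurred in 9 of 15. Each immediate early promoter shown holds them, so those shown do not stand for the whole list. TGACTCA, the AP-1 site, which does not contain TGACG, occurred in 4.06% of all, 7.13% of raised and 4.56% of lowered promoters, counted on both strands. A match is a run of letters and no evidence of a bound factor.

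*Egr1*, a zinc finger transcription factor, measured 12.5, 2.67 and 2.21 CPM in the untreated libraries and 83.9 and 255 CPM in the dilated libraries (log2 fold change 5.65 ± 0.60 (SE), adjusted p = 9.83e-05). *Nr4a1*, an orphan nuclear receptor, measured 14.3, 9.99 and 9.49 CPM untreated and 50.4 and 400.4 CPM dilated (log2 fold change 4.64 ± 0.66 (SE), adjusted p = 0.000606). *Junb*, a partner in AP-1 dimers, measured 30.5, 21.3 and 17.7 CPM untreated and 104 and 486 CPM dilated (log2 fold change 3.98 ± 0.55 (SE), adjusted p = 0.000555). For all 3 genes both dilated libraries lay above every untreated library, and dilated replicate 2 lay above dilated replicate 1. *Nr4a2* went from 1.87, 2.53 and 2.37 CPM to 11.1 and 110.4 CPM (log2 fold change 4.86 ± 0.79 (SE), adjusted p = 0.00147) and *Atf3*, a stress-inducible bZIP factor, from 1.87, 0.845 and 0.791 CPM to 7.80 and 40.3 CPM (log2 fold change 4.80 ± 0.82 (SE), adjusted p = 0.00201). *Jun*, *Jund*, *Ier2*, *Klf4* and *Maff* were raised as well, by log2 fold changes of 2.63, 1.70, 4.56, 2.85 and 3.61. *Fos*, the best known member, measured 9.35, 1.83 and 1.11 CPM untreated and 14.7 and 180.3 CPM dilated (log2 fold change 5.47 ± 0.96 (SE), adjusted p = 0.00249). Its rise rested on dilated replicate 2, without which the call was lost (log2 fold change 2.49, adjusted p = 0.0502), and so was that of *Nr4a3*, with 2.49, 0.422 and 0.316 CPM untreated and 3.06 and 44.9 CPM dilated (without that library log2 fold change 2.24, adjusted p = 0.162). *Btg2*, an antiproliferative gene induced with the immediate early genes whose protein recruits the CCR4-NOT deadenylase, measured 19.9, 15.2 and 12.8 CPM untreated and 140.1 and 1025 CPM dilated (log2 fold change 5.50 ± 0.67 (SE), adjusted p = 0.000229).

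The 2 dilated libraries did not carry the immediate early response at the same level. Over the 20 raised members of that list the median log2 ratio of replicate 2 to replicate 1, on CPM with 1 added, was 1.18. Replicate 2 was more than 2-fold higher for 11 of them and replicate 1 for 0. Over all 1109 raised transcripts, 44 were more than 2-fold higher in replicate 2 and 12 in replicate 1. *Pde10a*, *Hk2*, *Tmem158* and *Slc26a4* differed little between both libraries, so the gap was not shared by every strong rise. The labels place the 2 libraries in different runs of library numbers, and why they differ was not tested.

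**Figure D2:**
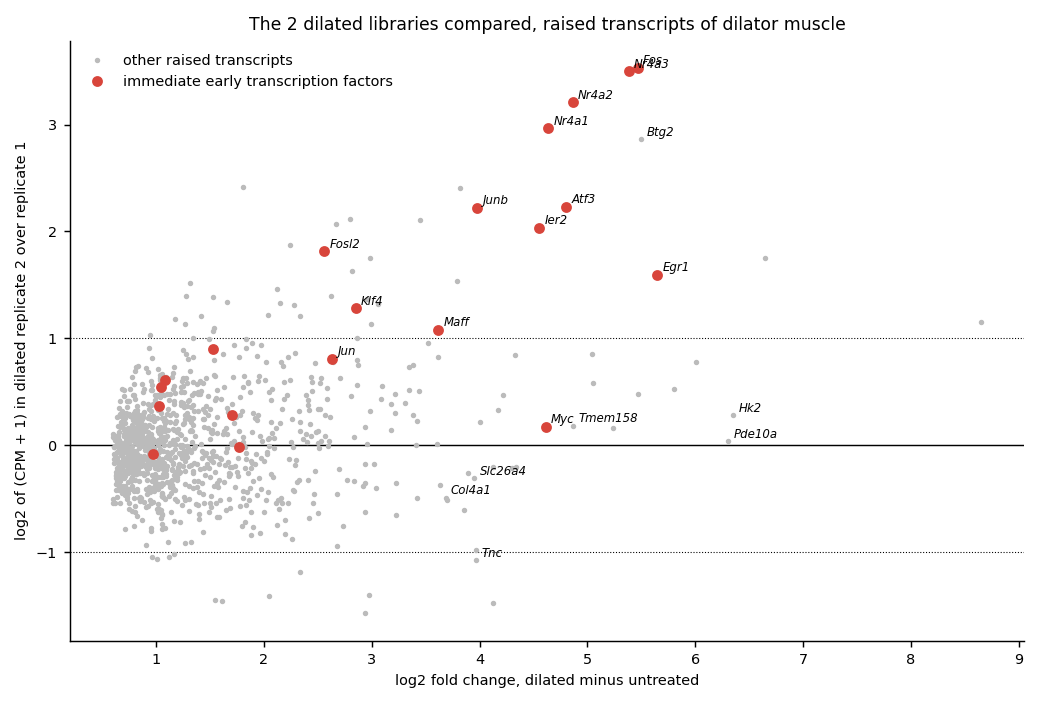
Log2 ratio of (CPM + 1) in dilated replicate 2 over replicate 1 (vertical axis) against the log2 fold change, dilated minus untreated (horizontal axis), 1 point per transcript raised in dilator muscle nuclei, with raised immediate early members in red and dotted lines at a 2-fold difference in either direction. Of 20 red points 11 lie above the upper dotted line and 0 below the lower one, while *Pde10a* and *Hk2* lie near 0.

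The share of nuclei with a transcript was counted for single genes. *Pde10a* was detected, with at least 1 UMI, in 9.18%, 5.00% and 4.80% of untreated dilator muscle nuclei per library and in 80.3% and 75.9% of dilated nuclei, with exact binomial 95% intervals of 78.7 to 81.8% and 73.5 to 78.2% for the latter, which cover counting error only. With every nucleus thinned to 1000 UMIs these shares were 4.00%, 1.69% and 1.61% untreated and 56.2% and 52.8% dilated. Between 1 and 13 nuclei per library fell below 1000 UMIs and were left out. In leukocytes of the dilated libraries *Pde10a* was detected in 25% and 14.7% of nuclei at median depths of 1874 and 1843 UMIs, against 3800 and 3660 UMIs for dilator muscle nuclei. *Btg2* separated the dilated libraries, with 27% and 76.1% of nuclei against 3.72%, 4.18% and 3.42% untreated, and 10.2% and 49.2% against 2.00%, 1.26% and 1.24% after thinning. Leukocytes of the dilated libraries had *Btg2* in 25% and 47.1% of nuclei, a range that dilator muscle nuclei of dilated replicate 1 did not clearly exceed. The paper cites a role of BTG2 in T cell quiescence. Leukocytes may thus hold *Btg2* transcripts of their own, and their shares do not set a background for this gene. By in situ hybridization the paper reports more *Btg2* transcript in dilator muscle with dilation.

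In the list of ERK and MAP kinase feedback genes most members were raised, while ERK activity itself was not measured. Of 23 members measured, 14 were raised and 1 lowered, with a median log2 fold change of 1.10. *Tmem158*, a membrane protein induced by RAS, measured 6.23, 6.61 and 9.49 CPM untreated and 187 and 213 CPM dilated (log2 fold change 4.87 ± 0.25 (SE), adjusted p = 4.25e-07). *Spred2*, which restrains RAF activation, measured 9.97, 4.22 and 4.75 CPM untreated and 83.9 and 54.9 CPM dilated (log2 fold change 3.86 ± 0.33 (SE), adjusted p = 2.79e-05). These transcripts were as high in dilated replicate 1 as in replicate 2, or nearly so. *Spred1*, *Spred3*, *Errfi1* (an inhibitor of EGF receptor family kinases), *Trib1* (a pseudokinase) and *Rasa2* (a RAS GTPase-activating protein) were raised by 1.82, 3.18, 1.94, 2.96 and 1.50 on the log2 scale. *Dusp1*, a nuclear phosphatase of MAP kinases, was raised by 2.82 with all libraries, a call lost without dilated replicate 2 (log2 fold change 1.63, adjusted p = 0.0601). The lowered member was *Map2k6*, the kinase upstream of p38, at 88.5, 139 and 134 CPM untreated and 24.2 and 31.1 CPM dilated (log2 fold change -1.97 ± 0.25 (SE), adjusted p = 0.000327). *Egfr* itself, in the growth factor list, was raised by 1.53 ± 0.20 (SE).

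Enzymes that break down cyclic nucleotides included one of the strongest rises in the tissue. *Pde10a* (chr17:8525372-8986648, GRCm38), which hydrolyzes both cAMP and cGMP, measured 27.4, 17.6 and 15.8 CPM in the untreated libraries, 28.3, 19.9 and 13.3 CPM in the constricted libraries and 1305 and 1338 CPM in the dilated libraries (log2 fold change 6.30 ± 0.26 (SE), adjusted p = 1.62e-07). The constricted and untreated libraries overlapped, and the dilated libraries stood apart from both. Of 21 phosphodiesterase genes measured 6 were raised and 0 lowered. *Pde3b* measured 15.6, 8.44 and 6.17 CPM untreated and 60.1 and 102 CPM dilated (log2 fold change 3.38 ± 0.33 (SE), adjusted p = 5.56e-05), and *Pde7b*, specific for cAMP, 75.4, 64.7 and 42.9 CPM and 375 and 164 CPM (log2 fold change 2.34 ± 0.32 (SE), adjusted p = 0.000505). *Pde8a* and *Pde4b*, also specific for cAMP, were raised by 1.98 ± 0.23 (SE) and 1.67 ± 0.34 (SE) on the log2 scale. The 21 genes together summed to 4091 to 4235 CPM in untreated and 5751 and 5303 CPM in dilated libraries, an increase about as large as that of *Pde10a* alone.

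Of 36 genes for other parts of the cAMP pathway 10 were raised and 2 lowered (1 whichever single library was left out). *Sik1*, a kinase whose transcription responds to cAMP and which represses CREB coactivators, measured 11.8, 10.1 and 8.86 CPM untreated and 37.7 and 205 CPM dilated (log2 fold change 3.82 ± 0.55 (SE), adjusted p = 0.000693). The coactivator gene *Ppargc1a*, the anchoring protein gene *Akap13*, the soluble adenylyl cyclase gene *Adcy10* and the exchange factor gene *Rapgef4* were raised by 1.48, 1.19, 1.28 and 1.05 on the log2 scale. *Rap1gap*, which switches RAP1 off, was lowered, with a log2 fold change of -1.47 ± 0.22 (SE). Among receptors that raise cAMP, *Calcrl*, the core of the CGRP and adrenomedullin receptors, measured 5.61, 4.93 and 5.85 CPM untreated and 38.7 and 30.5 CPM dilated (log2 fold change 2.84 ± 0.22 (SE), adjusted p = 1.5e-05), and the serotonin receptor gene *Htr4* 52.4, 54.6 and 57.6 CPM and 228 and 186 CPM (log2 fold change 2.09 ± 0.17 (SE), adjusted p = 1.56e-05). *Vipr2*, a VIP and PACAP receptor that also raises cAMP, was lowered (-1.03). Changes in receptors of this pathway thus ran in both directions.

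Among the receptors that the drops engage directly 1 of 7 tested was raised and 1 lowered, and neither call held without dilated replicate 2. *Adra1a*, the main alpha-1 receptor transcript of the dilator, measured 507, 456 and 473 CPM untreated and 344 and 243 CPM dilated, a log2 fold change of -0.52 ± 0.24 (SE) that did not pass the test (adjusted p = 0.175), although it was called lowered with the run of library numbers as a term (log2 fold change -0.62, adjusted p = 0.0277). *Adra1b* measured 26.2, 29.1 and 30.1 CPM untreated and 43.6 and 42.9 CPM dilated and was called raised (log2 fold change 0.77 ± 0.18 (SE), adjusted p = 0.0117), a call lost without dilated replicate 2 (log2 fold change 0.70, adjusted p = 0.0816), with library size scaling (log2 fold change 0.59, adjusted p = 0.0387) and with nuclei thinned to 1000 UMIs (log2 fold change 0.65, adjusted p = 0.0963). *Chrm2*, a muscarinic receptor coupled to Gi, measured 675, 579 and 635 CPM untreated and 293 and 213 CPM dilated (log2 fold change -1.13 ± 0.22 (SE), adjusted p = 0.00461). Without dilated replicate 2 the call on *Chrm2* was lost (log2 fold change -0.99, adjusted p = 0.0512), although dilated replicate 1 also lay below all untreated libraries. *Chrm1*, *Chrm3* and *Chrm4* were tested and not called, with log2 fold changes of -0.25, 0.15 and -0.73. A further 6 members in the matrix (*Adra1d*, *Adra2a*, *Adra2b*, *Adra2c*, *Adrb1*, *Adrb3*) had too few UMIs to be tested, with no library above 2.57 CPM.

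Other transmitter and peptide receptors fell more often than they rose, with 2 of 26 raised and 6 lowered. *Tacr1*, the substance P receptor, measured 122, 119.9 and 98.1 CPM untreated and 35.9 and 26.2 CPM dilated (log2 fold change -1.67 ± 0.24 (SE), adjusted p = 0.000693). *Tacr3*, the neurokinin B receptor, and *Npsr1*, the neuropeptide S receptor, were lowered, with log2 fold changes of -1.11 ± 0.15 (SE) and -1.41 ± 0.21 (SE). *Opn4*, the gene of the photopigment melanopsin, chosen here after its values were seen, measured 21.8, 27 and 23.7 CPM untreated and 8.69 and 4.41 CPM dilated (log2 fold change -1.68 ± 0.26 (SE), adjusted p = 0.00115). Both dilated libraries lay below the untreated and the constricted libraries (36, 26.6 and 25.1 CPM in the latter). *Npr3*, the clearance receptor for natriuretic peptides in the cGMP list, was lowered as well, from 56.1, 41.5 and 53.5 CPM to 13.3 and 14.6 CPM (log2 fold change -1.66 ± 0.20 (SE), adjusted p = 0.000242). *Nos1*, the neuronal nitric oxide synthase that marks the dilator muscle, measured 218, 253 and 268 CPM untreated and 139 and 95 CPM dilated (log2 fold change -0.91 ± 0.18 (SE), adjusted p = 0.0049), a call lost without dilated replicate 2 (log2 fold change -0.73, adjusted p = 0.0663).

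Calcium handling changed in single genes rather than as a block. Of 41 genes for Gq effectors, calcium stores and pumps 8 were raised (5 without untreated replicate 3 or either dilated library) and 5 lowered (3 without dilated replicate 2), with a median of 0.01. *Cracr2a*, a calcium-binding regulator of store-operated entry, measured 119.7, 110.1 and 104 CPM untreated and 23.8 and 22.6 CPM dilated (log2 fold change -2.07 ± 0.18 (SE), adjusted p = 3.44e-05). *Stim1*, the calcium sensor of the store, was lowered (-0.71 ± 0.13, SE) while *Orai1*, its channel partner, was raised (0.92 ± 0.17, SE). *Atp2b1*, a calcium pump of the plasma membrane, and *Prkca*, a protein kinase C, were raised by 0.97 and 1.05. Targets of calcineurin and NFAT included the raised *Rcan1* (1.35), *Gem* (2.12) and *Homer1* (2.44), 4 of 21 measured, with 0 lowered. Among voltage-gated calcium channel genes *Cacna1d* was lowered (-0.83) and the auxiliary subunit *Cacna2d3* raised (1.73).

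Of 48 members measured in the list of the actin cytoskeleton and its adhesions 22 were raised (45.8%), 4 were lowered and 22 were not called, with a median log2 fold change of 0.69. *Tagln2*, an actin-binding calponin relative, measured 13.7, 14.6 and 11.2 CPM untreated and 61.1 and 107 CPM dilated (log2 fold change 2.87 ± 0.31 (SE), adjusted p = 0.0001). *Vim*, the intermediate filament vimentin, measured 56.1, 48 and 51.4 CPM untreated and 209.8 and 244 CPM dilated (log2 fold change 2.34 ± 0.18 (SE), adjusted p = 1.25e-05). *Pgm5*, a protein of adherens junctions in muscle, measured 27.4, 13.7 and 15.3 CPM untreated and 116 and 92 CPM dilated (log2 fold change 2.77 ± 0.25 (SE), adjusted p = 3.44e-05). Both dilated libraries lay above all untreated libraries in each. Nonmuscle myosin *Myh9*, actin crosslinker *Actn1*, cytoplasmic actin *Actg1* and tropomyosin *Tpm4* were raised by 1.62, 1.33, 1.35 and 1.97 on the log2 scale. At the adhesions *Vcl* (vinculin) was raised by 1.45, *Zyx* (zyxin) by 1.34, *Ilk* by 0.99 and the fibronectin receptor subunits *Itga5* and *Itgb1* by 1.48 and 1.41. In the whole integrin family 5 of 22 genes measured were raised (3 without dilated replicate 2) and 0 lowered. *Lmna*, the nuclear lamin A/C, was raised by 1.32. The lowered members included *Bcar1*, an adhesion adaptor, *Phactr1*, an actin and phosphatase regulator, and *Ablim3*, at -1.19, -1.17 and -1.37.

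Among the contractile genes of smooth muscle 5 of 25 were raised and 1 lowered (0 to 2 with 1 library left out), with a median of 0.22. Without dilated replicate 2 only 1 was raised. *Cald1* (caldesmon) measured 595, 599 and 611 CPM untreated and 1055 and 1113 CPM dilated (log2 fold change 1.04 ± 0.14 (SE), adjusted p = 0.000401), the only member called under every alternative tried. *Tagln* (SM22) measured 737, 357 and 372 CPM untreated and 978 and 1944 CPM dilated (log2 fold change 1.83 ± 0.35 (SE), adjusted p = 0.00384) and was lost without dilated replicate 2 (log2 fold change 1.15, adjusted p = 0.0586). *Csrp1*, a LIM protein of smooth muscle, measured 151, 117 and 119 CPM untreated and 195 and 497 CPM dilated (log2 fold change 1.66 ± 0.35 (SE), adjusted p = 0.0073) and was lost likewise (log2 fold change 0.73, adjusted p = 0.146). Smooth muscle actin *Acta2* and smooth muscle myosin *Myh11* were not called: *Acta2* measured 954, 446 and 438 CPM untreated and 375 and 866 CPM dilated, and *Myh11* 1681, 2022 and 2090.1 CPM and 1140.4 and 1246 CPM (adjusted p = 0.0654). With library size scaling *Myh11* was called lowered (log2 fold change -0.70, adjusted p = 0.00799). The untreated and dilated ranges of *Acta2* overlapped, and those of *Myh11* did not. *Myocd* was called lowered, with log2 fold changes from -1.39 to -0.62 over the alternatives. That call was lost without untreated replicate 1, 2 or 3, without dilated replicate 1 and with nuclei thinned to 1000 UMIs. The contractile list as a whole summed to 18286 to 18705 CPM in untreated and to 15231 and 16948 CPM in dilated libraries. These sums carry no TMM scaling, whose factors were 0.965 and 0.857 in the dilated and 1.10, 1.00 and 1.02 in the untreated libraries. The summed CPM was thus lower in the dilated libraries, while the median of 0.22 came from the fit with TMM. With library size scaling that median was 0.002. Whether the sum differs after TMM was not tested.

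In the list of SRF cofactors, YAP, TAZ and their targets 7 of 20 members were raised (against 7.2% of all genes) and 1 lowered (0 without dilated replicate 1). *Thbs1*, the matricellular protein thrombospondin 1, measured 3.12, 0.563 and 0.316 CPM untreated and 31.9 and 46.5 CPM dilated (log2 fold change 5.80 ± 0.54 (SE), adjusted p = 4.41e-05). *Tnfrsf12a*, the receptor for TWEAK, measured 0.623, 1.83 and 2.37 CPM untreated and 62.7 and 88 CPM dilated (log2 fold change 5.47 ± 0.39 (SE), adjusted p = 6.36e-06). The untreated levels of both genes rest on few UMIs (11 and 29 over the 3 libraries), so that the sizes of the folds are less certain than their direction. The TAZ gene *Wwtr1* was among the raised (1.05). *Cyr61*, a matricellular target of YAP, was raised by 3.45 with all libraries and lost without dilated replicate 2 (log2 fold change 1.90, adjusted p = 0.0717). The plasminogen activator *Plat* measured 45.5, 39.3 and 44.3 CPM untreated and 319 and 421 CPM dilated (log2 fold change 3.31 ± 0.17 (SE), adjusted p = 4.58e-07). *Timp1*, an inhibitor of metalloproteases, was raised by 2.65 ± 0.50 (SE).

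Basement membrane genes split within 1 family. *Col4a1* measured 5.61, 5.21 and 4.27 CPM untreated and 66 and 46.7 CPM dilated (log2 fold change 3.69 ± 0.21 (SE), adjusted p = 9.13e-07), and *Col4a2*, its neighbor and partner chain, 31.2, 14.5 and 20.9 CPM and 153 and 90.4 CPM (log2 fold change 2.73 ± 0.27 (SE), adjusted p = 5.42e-05). *Col4a5*, a chain of the other collagen IV network, was lowered from 656, 676 and 669 CPM to 352 and 299 CPM (log2 fold change -0.85 ± 0.16 (SE), adjusted p = 0.00416). *Emilin3*, a glycoprotein of the extracellular matrix, was the largest fall under the limits given above. It measured 117, 139 and 179 CPM untreated and 13.6 and 25.8 CPM dilated (log2 fold change -2.73 ± 0.42 (SE), adjusted p = 0.000994). It was detected in 28.5%, 32.8% and 37.8% of untreated and 5.03% and 8.50% of dilated dilator muscle nuclei, and in 10.8%, 12.8% and 15.2% and 1.52% and 2.91% after thinning. Leukocytes of the 2 dilated libraries held it in 0 of 68 and 0 of 34 nuclei, too few to set a background. Of 36 members of the list 2 were raised, namely these 2 collagen chains, and 8 lowered, *Lamb1* among them (-0.96 ± 0.18, SE). The lowered members numbered 4 without dilated replicate 1 and 3 without dilated replicate 2. The 6 stroma 2 markers, cells rich in matrix transcripts, summed to 83.7 to 111 CPM in untreated and 44.7 to 73.0 CPM in dilated dilator muscle nuclei, and their part in the lowered matrix genes was not tested.

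Of 27 chaperone genes 11 were raised (5 without dilated replicate 2 and 7 without untreated replicate 2) and 0 lowered, among them *Hspa1b* (2.60 ± 0.46, SE), *Dnajb5* (2.51 ± 0.37, SE), *Hsp90ab1* (1.42 ± 0.23, SE) and the cochaperone *Bag3* (0.98 ± 0.15, SE). In the list for amino acid, methionine and glucose supply 12 of 31 were raised and 2 lowered (1 without dilated replicate 1). *Hk2* (chr6:82725025-82774454, GRCm38), a hexokinase, the enzyme that phosphorylates glucose, measured 0.623, 0.281 and 0.633 CPM untreated and 32.2 and 39.3 CPM dilated (log2 fold change 6.35 ± 0.36 (SE), adjusted p = 9.13e-07). Its untreated level stands on 7 UMIs over the 3 libraries. *Mat2a*, which makes S-adenosylmethionine, measured 119.7, 133 and 123 CPM untreated and 511 and 1277 CPM dilated (log2 fold change 3.06 ± 0.33 (SE), adjusted p = 0.000101). The glucose transporter *Slc2a1*, lactate dehydrogenase *Ldha*, the taurine transporter *Slc6a6* and the amino acid transporters *Slc7a1* and *Slc38a2* were raised by 1.46, 1.28, 1.81, 1.82 and 1.67, while the cationic amino acid transporter *Slc7a2* was lowered (-1.33).

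Among gene families taken by symbol, 34 of 96 with a cytosolic ribosomal protein symbol (a pattern that also takes in kinases and pseudogenes named after them) were raised and 1 lowered, with a median of 0.76. Their summed level was 4342 to 5029 CPM in untreated, 3819 to 6285 CPM in constricted and 6940 and 7203 CPM in dilated libraries. Without TMM only 14 were raised and 2 lowered, and the raised proteasome and initiation factor genes described next numbered 4 and 7. *Rpl10a*, the member furthest raised, stood at 1.51 ± 0.20 (SE). Of 45 proteasome genes 12 were raised and 0 lowered, and of 51 translation initiation factor genes 11 were raised and 1 lowered, *Eif4a1* by 1.44. These family counts depended on single libraries. With 1 library left out the raised ribosomal symbols numbered 23, 5 and 13 (without untreated replicates 1, 2 and 3) and 18 and 7 (without dilated replicates 1 and 2), the proteasome genes 4, 5 and 2 and the initiation factors 5, 5 and 2 (each without untreated replicate 2, untreated replicate 3 and dilated replicate 2). Mitochondrially encoded transcripts were raised in 8 of 12, but in 0 without dilated replicate 1, 5 without untreated replicate 1 and 3 without untreated replicate 2 or 3, and summed to 406 to 424 CPM in untreated and to 904 and 527 CPM in dilated libraries. The mean mitochondrial percentage per nucleus was 0.035 to 0.044 in untreated and 0.089 and 0.053 in dilated libraries, and its part in these family counts was not tested.

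Glucocorticoid-responsive genes were raised in 8 of 21 cases (3 without dilated replicate 2) and lowered in 1 (0 without dilated replicate 1). *Cdkn1a*, the cell cycle inhibitor p21, which also stands in the growth arrest list, measured 0, 0.704 and 0.316 CPM untreated and 5.92 and 11.4 CPM dilated (log2 fold change 4.33 ± 0.69 (SE), adjusted p = 0.00131), and the metallothionein *Mt1* was raised by 1.89 ± 0.34 (SE). *Fkbp5*, a cochaperone of the glucocorticoid receptor, and *Per1*, which also belongs to the clock, were raised by 2.62 and 2.67 with all libraries, and both calls were lost without dilated replicate 2 (*Fkbp5* log2 fold change 1.64, adjusted p = 0.0767; *Per1* log2 fold change 1.14, adjusted p = 0.148). The clock genes as a list gave 3 raised (1 without dilated replicate 2) and 2 lowered of 22, the latter 0 without untreated replicate 2 or 3 and 1 without untreated replicate 1 or dilated replicate 1. In the list of apoptosis and growth arrest 8 of 22 were raised and 3 lowered. The largest rise in this list was that of *Plk3*, with a log2 fold change of 5.04. The antiapoptotic genes *Mcl1*, *Bcl2* and *Bcl2l1* were raised by 2.17, 1.00 and 0.85, and *Bcl2l11*, which encodes the proapoptotic BIM, was lowered, with a log2 fold change of -1.82 ± 0.27 (SE). These genes are a selection, with *Bcl2* and *Bcl2l1* chosen after their values were seen. Whether survival genes as a group were favored was not tested. *Plk5*, a kinase-deficient polo-like kinase, fell from 94.8, 73.6 and 87.6 CPM to 15 and 13.6 CPM (log2 fold change -2.38 ± 0.26 (SE), adjusted p = 0.000127). In the inflammation list 9 of 28 were raised, among them *Nfkbiz* (1.80), *Stat3* (1.13) and *Lgals3* (2.61), with leukocyte markers at 8.02 to 13.6 CPM in dilated and 11.1 to 18.1 CPM in untreated libraries.

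In the lipid and sterol list called genes lay in both directions. *Osbpl3*, an oxysterol-binding protein relative, measured 16.2, 13.5 and 16 CPM untreated and 115 and 102 CPM dilated (log2 fold change 3.02 ± 0.15 (SE), adjusted p = 4.25e-07), *Dbi*, which binds acyl-CoA, 76.7, 78.5 and 76.2 CPM and 367 and 616 CPM (log2 fold change 2.88 ± 0.27 (SE), adjusted p = 4.68e-05), and the cholesterol exporter *Abca1* 59.2, 59.1 and 49.4 CPM and 194 and 168 CPM (log2 fold change 1.88 ± 0.15 (SE), adjusted p = 1.5e-05). Lowered members included genes of cholesterol synthesis. *Fdft1* (squalene synthase) measured 94.1, 137 and 139 CPM untreated and 48.8 and 41.1 CPM dilated (log2 fold change -1.29 ± 0.22 (SE), adjusted p = 0.00187), and *Insig1*, a sterol-regulated inhibitor of SREBP processing, was lowered, with a log2 fold change of -1.12 ± 0.22 (SE). Over the whole list 9 of 28 were raised and 8 lowered, the latter 4 without untreated replicate 2, untreated replicate 3 or dilated replicate 1. In a subset of cholesterol synthesis genes picked after the values were seen, 6 of 8 were lowered and 0 raised, with a median of -0.87, which is a description only. *Gpnmb*, a glycoprotein of melanosomes and lysosomes, and *Ctsb*, the lysosomal protease cathepsin B, were raised by 2.09 and 1.74, and the lysosome and autophagy list gave 9 raised and 0 lowered of 27.

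Transporters of anions and water rose strongly in single genes. *Slc26a4* (pendrin), an exchanger of chloride, bicarbonate and iodide, measured 18.1, 37.4 and 23.1 CPM untreated and 420.1 and 339 CPM dilated (log2 fold change 3.95 ± 0.26 (SE), adjusted p = 2.78e-06). It was detected in 5.96%, 9.71% and 6.35% of untreated and 56.5% and 48.8% of dilated dilator muscle nuclei, and in 1.75%, 3.67% and 2.53% and 28.3% and 24.9% after thinning. In leukocytes of the dilated libraries the shares were 4.41% and 2.94%. *Aqp1*, a water channel, measured 27.4, 24.1 and 28.6 CPM untreated and 181 and 183 CPM dilated (log2 fold change 2.96 ± 0.19 (SE), adjusted p = 2.51e-06). The bicarbonate cotransporter *Slc4a7*, the chloride cotransporter *Slc12a2* and *Clic4* were raised by 1.88, 1.46 and 2.33, while *Car14*, a membrane carbonic anhydrase, was lowered, with a log2 fold change of -1.79 ± 0.23 (SE). The list held 10 raised and 4 lowered of 35. With 1 library left out the lowered members ranged from 1 to 3.

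Potassium channel genes went both ways, with 5 raised and 8 lowered of 32, the lowered falling to 4 without untreated replicate 2 or 3 and to 5 without either dilated library. *Kcnd3*, an A-type channel, measured 33, 18.4 and 20.6 CPM untreated and 106 and 73.1 CPM dilated (log2 fold change 2.17 ± 0.26 (SE), adjusted p = 0.00022), and *Kcnmb4*, a subunit of the calcium-activated BK channel, was raised by 1.94 ± 0.26 (SE). *Kcnn2*, a small conductance calcium-activated channel, *Kcnj3*, a channel gated by G proteins, and *Dpp6*, an auxiliary subunit of A-type channels, were lowered, with log2 fold changes of -1.12 ± 0.19 (SE), -1.18 ± 0.20 (SE) and -1.36 ± 0.22 (SE). In the KCTD family, adaptors that include auxiliary subunits of GABA-B receptors, 6 of 19 were lowered (3 without untreated replicate 2 or either dilated library) and 0 raised, with *Kctd16* at -1.40 and *Kctd8* at -0.99. Among ligand-gated channels the glutamate receptor subunits *Grik2* and *Gria4* were lowered (-1.65 and -1.53) and the ATP-gated *P2rx7* and *P2rx4* were raised (1.69 and 1.00).

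Synaptic and neuronal adhesion genes were the list lowered most often among those of 40 or more members measured: 11 of 44 (25%, against 6.14% of all genes), with 2 raised and a median of -0.24. Smaller groups reached as much or more, with 28.6% of the lipid and sterol list, 25% of the potassium channels and 31.6% of the KCTD family lowered. The lowered synaptic adhesion members numbered 7 without untreated replicate 2, untreated replicate 3 or either dilated library. *Il1rapl2*, of the interleukin 1 receptor family and related to a synaptic organizer, measured 358, 392 and 395 CPM untreated and 83.7 and 77.5 CPM dilated (log2 fold change -2.06 ± 0.17 (SE), adjusted p = 1.9e-05). *Cntn6* (contactin 6) measured 53, 49.5 and 56.8 CPM untreated and 15.1 and 8.82 CPM dilated (log2 fold change -1.94 ± 0.28 (SE), adjusted p = 0.000753). *Ntng1*, *Tenm2*, *Cadm2* and *Nlgn1* were lowered, with log2 fold changes of -1.63 ± 0.22, -1.60 ± 0.17, -1.42 ± 0.20 and -1.23 ± 0.17 (SE). The raised members, 4 in number without dilated replicate 2, were with all libraries *Anks1b*, a postsynaptic scaffold (2.94 ± 0.27, SE), and the latrophilin *Adgrl3* (1.47 ± 0.15, SE). Many of these genes are long, as were the lowered transcripts in general, of which 26.9% came from gene bodies over 100000 bases against 16.8% of all genes. Length was not separated from list membership. In the axon guidance list 4 were raised and 5 lowered of 36, with 2 to 3 raised and 3 to 5 lowered when 1 library was left out, *Robo2* and *Plxna4* at -1.69 and -1.52, and *Ntn4* (netrin 4) raised by 1.46.

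Signaling ligands and their antagonists showed no common direction. The Wnt, Hedgehog, TGF-beta and BMP list gave 10 raised and 10 lowered of 56. *Id1*, a target of BMP signaling, measured 6.86, 8.44 and 5.06 CPM untreated and 42.4 and 53.1 CPM dilated (log2 fold change 2.98 ± 0.32 (SE), adjusted p = 0.0001), with *Bmp2* raised by 2.45 ± 0.38 (SE) and the antagonists *Wif1* and *Fst* by 2.33 ± 0.19 (SE) and 2.51 ± 0.42 (SE). *Wnt5b*, *Nkd1*, *Cdon* and *Hhip* were lowered, with log2 fold changes of -1.62, -1.45, -1.19 and -1.19. Among growth factors and receptors 3 of 44 were raised and 7 lowered (4 without dilated replicate 2), *Igfbp2* raised by 2.81 ± 0.22 (SE) and *Pdgfa* lowered at -1.04 ± 0.18 (SE).

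Smaller counts came from the remaining lists. The voltage-gated calcium channels gave 2 raised and 1 lowered of 17, the ligand-gated channels 3 and 5 of 35, the nitric oxide and cGMP list 2 and 2 of 12, the extracellular proteases and inhibitors 4 and 3 of 25, and the BTG/TOB and CCR4-NOT list 2 and 0 of 21. With 1 library left out the ligand-gated channels had 2 to 4 lowered, the nitric oxide and cGMP list 0 to 1 raised and 1 to 2 lowered, the calcium channels 1 to 2 in each direction, the BTG/TOB list 1 to 2 raised and the proteases 2 to 3 lowered. In the inflammation list 2 were lowered, and 0 to 1 with a library left out.

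Several lists above held 0 lowered members by edgeR. At an unadjusted p under 0.05, lowered members numbered 0 in the immediate early, lysosome, non-coding RNA and BTG/TOB lists and the integrin and mitochondrially encoded families, 1 each in the phosphodiesterase and chaperone lists and the proteasome family, and 2 in the calcineurin list, and DESeq2 called 0 in each. For the KCTD family, with 0 raised, the unadjusted count was 1 and DESeq2 called 0.

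**Figure D3:**
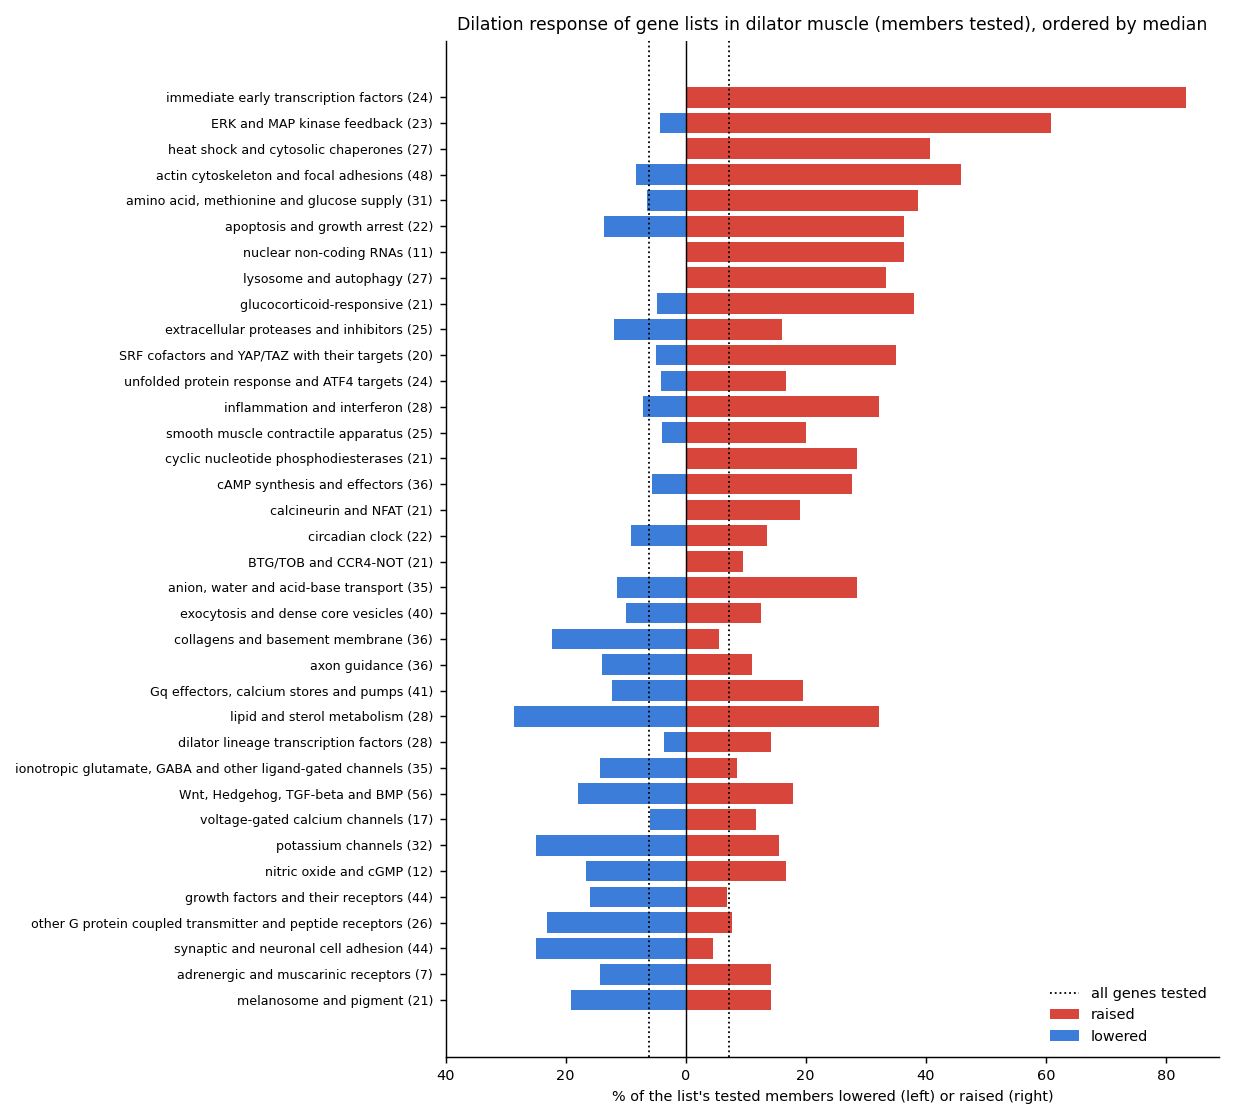
Percent of the tested members of each of 36 gene lists that were raised (bars to the right, red) or lowered (bars to the left, blue) in dilated against untreated dilator muscle nuclei, with the number tested in brackets, lists ordered by median log2 fold change and dotted lines at the 7.2% and 6.14% of all genes tested. The immediate early list reaches 83.3% raised. The lipid and sterol list reaches 28.6% lowered, and synaptic adhesion and potassium channels 25%.

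Pigment genes, which albino mice still transcribe, were called in both directions. *Tyr* (chr7:87424771-87493512, GRCm38), which encodes tyrosinase, measured 1170.1, 1189 and 1284 CPM untreated, 998, 1589 and 976 CPM constricted and 299 and 253 CPM dilated (log2 fold change dilated against untreated -1.95 ± 0.22 (SE), adjusted p = 0.000132). It was detected in 59.8%, 60.3% and 62.3% of untreated and 22.7% and 19.2% of dilated dilator muscle nuclei thinned to 1000 UMIs (90.3%, 85.3% and 85.3% and 53.3% and 46.2% before thinning), with 0%, 11.1% and 2.99% and 3.23% and 6.25% of thinned leukocytes. *Rab38*, which carries tyrosinase to melanosomes, *Gpr143*, a receptor of melanosomes, and *Lrmda* were lowered, with log2 fold changes of -1.92 ± 0.17, -1.31 ± 0.19 and -1.07 ± 0.20 (SE). *Gpnmb* measured 1843, 1944 and 2052 CPM untreated and 7086 and 7431 CPM dilated (log2 fold change 2.09 ± 0.17 (SE), adjusted p = 1.56e-05). *Dct*, which follows tyrosinase in melanin synthesis, was raised by 0.76, a call lost without dilated replicate 2 (log2 fold change 0.63, adjusted p = 0.0512) and with library size scaling (log2 fold change 0.56, adjusted p = 0.0305). In all 3 of 21 pigment genes were raised (1 without dilated replicate 2) and 4 lowered.

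**Figure D4:**
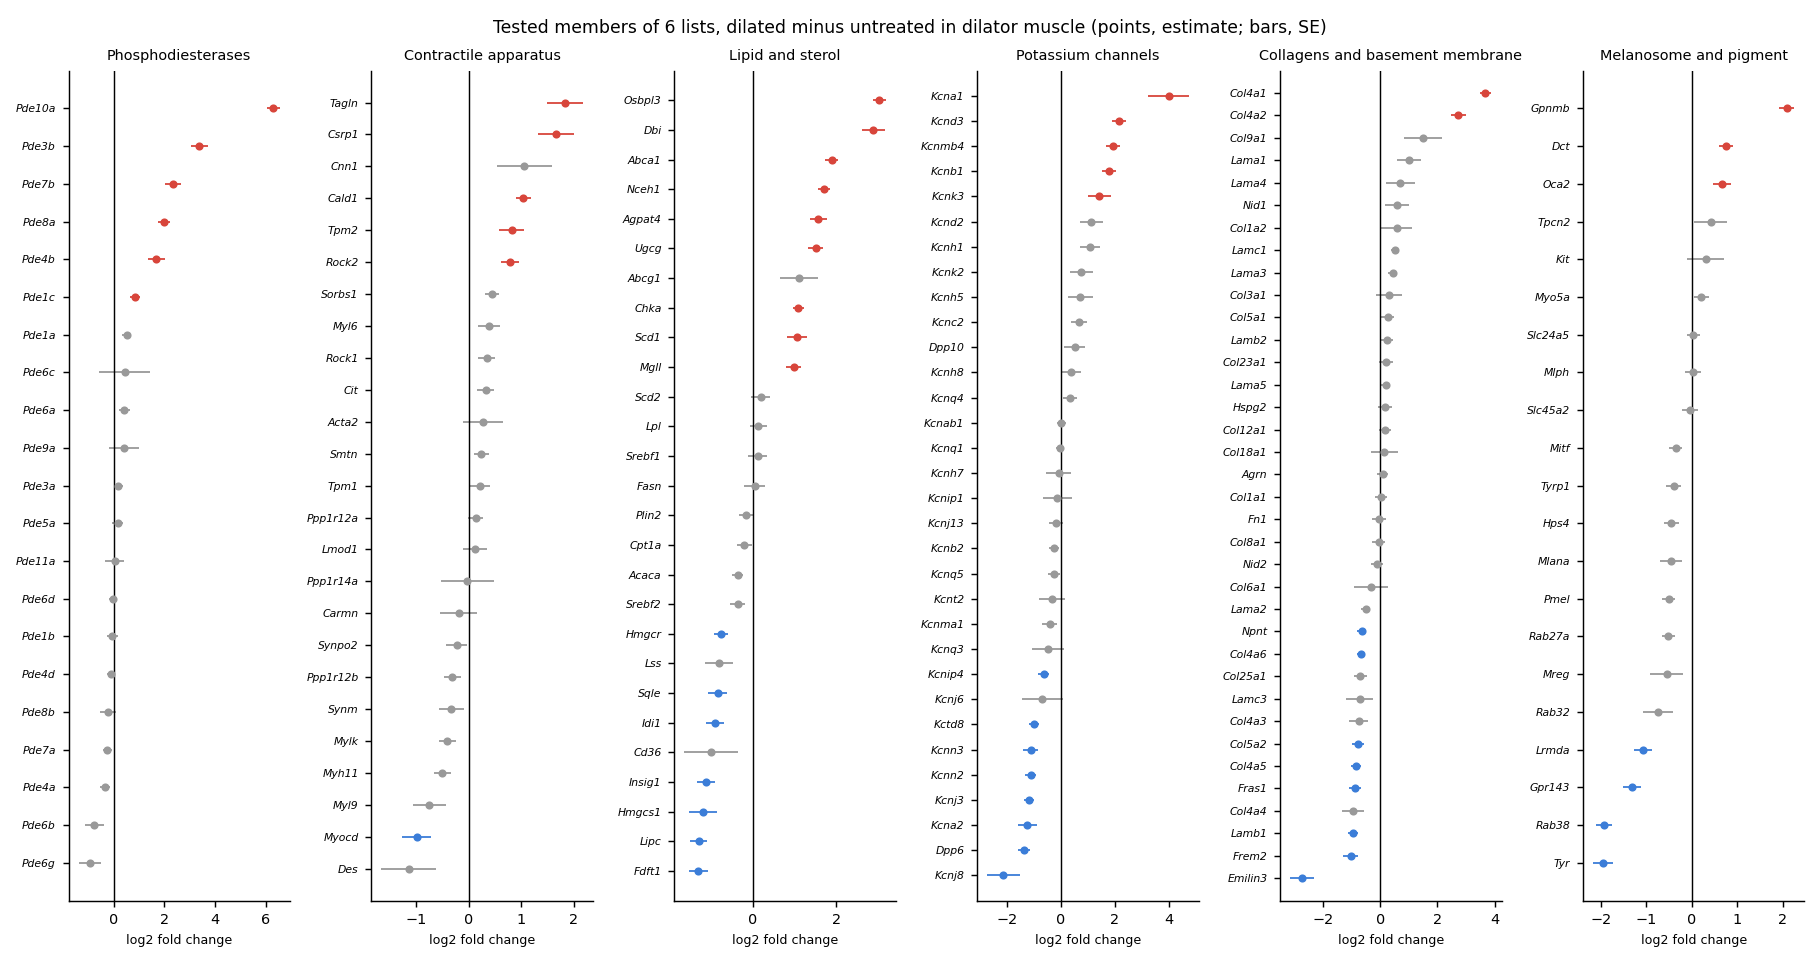
Log2 fold change (dilated minus untreated, dilator muscle nuclei) of tested members of 6 gene lists, 1 point per gene with its SE as a bar, raised members in red, lowered in blue and members not called in gray. *Pde10a* stands apart among phosphodiesterases at 6.30, *Col4a1* and *Col4a2* lie opposite *Emilin3* (-2.73), and *Gpnmb* (2.09) lies opposite *Tyr* (-1.95).

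Of the 8 dilator muscle markers 1 was raised (*Otx2*) and 2 were lowered (*Chrm2* and *Nos1*, given above), and their median log2 fold change was -0.42. Of 28 lineage transcription factors measured 4 were raised and 1 lowered (0 without untreated replicate 2, untreated replicate 3 or either dilated library), *Bach2*, *Zbtb7c* and *Arid5b* by 2.11, 1.88 and 1.42. *Pax6*, needed in all neural ectoderm of the eye, measured 1339.7, 1538 and 1639 CPM untreated and 1344 and 1501 CPM dilated (log2 fold change 0.11 ± 0.19, SE, adjusted p = 0.76), and *Otx1* 61.1, 70.9 and 68.7 CPM and 50.5 and 43.1 CPM (adjusted p = 0.193). *Otx2* measured 332, 338 and 347 CPM untreated and 545 and 414 CPM dilated and was called raised (log2 fold change 0.68 ± 0.14 (SE), adjusted p = 0.00598), a call lost without dilated replicate 1 (log2 fold change 0.55, adjusted p = 0.069) and with library size scaling (log2 fold change 0.50, adjusted p = 0.0395). Among nuclear non-coding RNAs 4 of 11 were raised and 0 lowered. The 11 summed to 133624 to 176262 CPM in untreated, 141951 to 193076 CPM in constricted and 185417 and 240224 CPM in dilated libraries. A larger sum here leaves less of the unscaled CPM to all other genes. *Neat1*, which builds paraspeckles, measured 966, 729.8 and 802 CPM untreated and 3560.4 and 2311 CPM dilated (log2 fold change 2.00 ± 0.20 (SE), adjusted p = 6.02e-05), and *Meg3* 26.2, 17.9 and 14.1 CPM and 188 and 62.5 CPM (log2 fold change 2.94 ± 0.40 (SE), adjusted p = 0.000509).

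The response was then compared with that of the iris PE, the neighboring layer of the same origin (8704 nuclei), and of stroma 2 (6763 nuclei), in the same libraries. In the iris PE 64 of 14128 genes were raised (0.453%) and 20 lowered (0.142%), and in stroma 2 172 of 12788 were raised (1.35%) and 49 lowered (0.383%). A test of the difference between dilation effects called 1434 of 16283 genes (8.81%) for dilator muscle against iris PE, 4.24% with a higher and 4.56% with a lower effect in dilator muscle, and 1190 of 15749 (7.56%) against stroma 2, 4.13% higher and 3.42% lower. Among the transcripts raised in dilator muscle the difference from the iris PE was called for 508 and among the lowered for 463. Counting only members also called in dilator muscle, the difference was called for 12 immediate early, 20 actin and adhesion and 9 synaptic adhesion genes. The called members of these lists were 20 raised and 0 lowered, 22 and 4, and 2 and 11, of 24, 48 and 44 measured. Over all genes the difference was called for 971 of the 2054 transcripts called in dilator muscle.

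*Pde10a* was raised in all 3 cell types, and more in the dilator muscle: its log2 fold change was 4.49 in the iris PE (15.9 CPM untreated and 339 CPM dilated) and 2.94 in stroma 2, and the tested difference from the iris PE was 1.83 ± 0.20 (SE), adjusted p = 4.57e-07. *Col4a1* was not raised in the iris PE (-0.16), and its difference was 3.73 ± 0.34 (SE), adjusted p = 3.93e-08. *Calcrl* likewise stood at -0.36 there, with a difference of 3.12 ± 0.39 (SE), adjusted p = 3.92e-06. *Pde3b* rose by nearly the same amount in both layers (3.37 in the iris PE), and its difference was 0.06 ± 0.45 (SE), adjusted p = 0.964, which does not show that the effects were equal. *Npr3* fell in both layers as well, with -1.69 in the iris PE, with a difference of 0.11 ± 0.20 (SE), adjusted p = 0.81. *Tyr* was also lowered in the iris PE (-1.14), with a difference of -0.84 ± 0.11 (SE), adjusted p = 6.96e-06. Thinning was not applied to these tests. Iris PE nuclei had median depths of 3006 to 3581 UMIs in the 5 libraries, near those of dilator muscle nuclei.

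**Figure D5:**
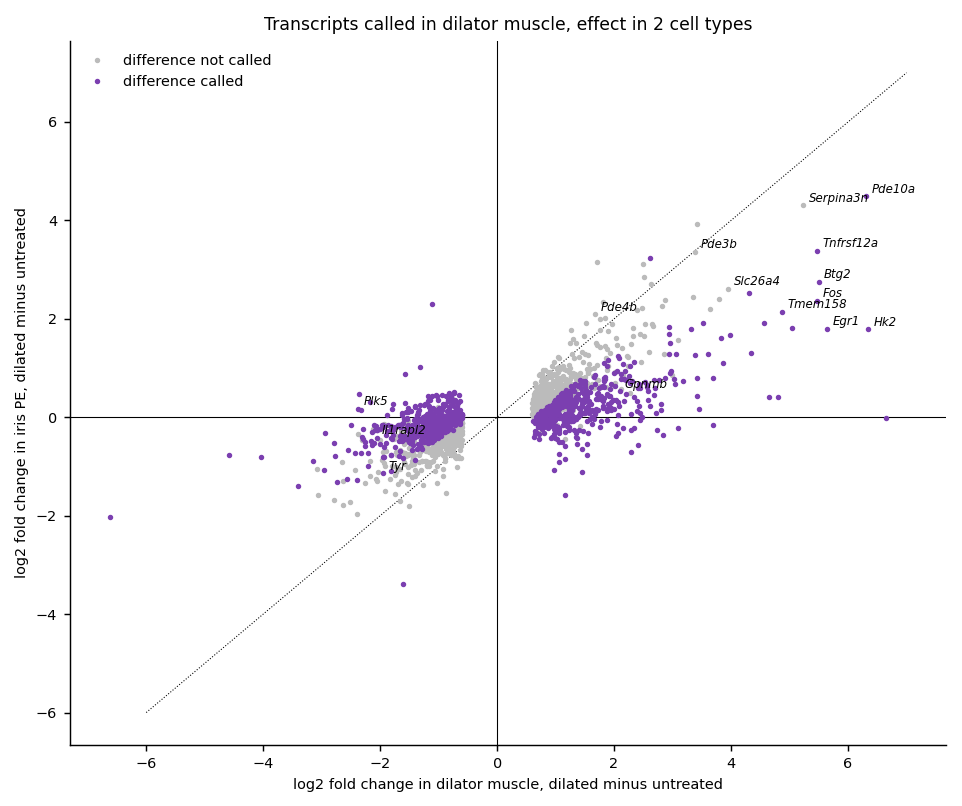
Log2 fold change (dilated over untreated) in iris PE nuclei (vertical axis) against that in dilator muscle nuclei (horizontal axis), 1 point per gene called in dilator muscle and measured in both, with genes whose 2 effects differed by the interaction test colored. *Pde10a* lies high on both axes (6.30 and 4.49), while *Col4a1* lies at 3.69 in dilator muscle and -0.16 in the iris PE.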

How the data were processed

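Nuclei were isolated from irises and profiled with 10x Genomics 3' chemistry. Per the study's methods and the submitters' processing notes, the authors aligned reads with Cell Ranger 3.1.0 to the mm10 pre-mRNA index, so that intronic reads count and long genes gather more UMIs, removed nuclei by mitochondrial share and transcript number, and annotated cell types in Seurat. The deposited matrices hold UMI counts per gene and nucleus, and the deposited tables of nuclei hold the percent of UMIs on mitochondrial genes. A nucleus that passed these filters can still carry free RNA of other cells.

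Counts of nuclei annotated as dilator muscle were summed per library, since libraries and not nuclei are the replicates. All 8 libraries were fitted together in edgeR 4.0.16 (R 4.3.3) with condition as the only term, filterByExpr, TMM scaling and the quasi-likelihood test (glmQLFit, glmQLFTest, two-sided). The study tested nuclei as independent observations; its thresholds were kept and its test was not. Differences between cell types were tested as an interaction in 1 fit of both sums with a term for each library. CPM values are UMIs per 1000000 of the dilator muscle total without TMM, so a ratio of CPM differs slightly from the fitted log2 fold change, and effects given for the iris PE or stroma 2 come from their own fits. Depth was 1604121 to 10129055 UMIs per library.

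The members, the 37 gene lists, the 35 symbol families and the 7 marker lists were chosen with earlier results of these data known. Named genes followed a rule: the 12 largest rises and falls of at least 20 CPM whose groups do not overlap, and per list up to 6 called genes of smallest adjusted p and up to 3 not called, from which the text draws. *Ablim3*, *Actg1*, *Atf3*, *Bcar1*, *Bcl2*, *Bcl2l1*, *Bmp2*, *Cadm2*, *Cntn6*, *Fdft1*, *Fst*, *Hhip*, *Ilk*, *Insig1*, *Jund*, *Kctd8*, *Opn4*, *Phactr1*, *Slc12a2*, *Slc2a1*, *Slc7a1*, *Spred3*, *Wnt5b* and *Zyx* lie outside it and were chosen after their values were seen. A few items are not reported here. Symbols were matched to GENCODE vM21 positions for 22462 genes.

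In simulated counts the test recovered 55% of genes changed by a log2 fold change of 1 and 100% of those changed by 2. False calls numbered 10 among 15183 genes. For the difference from the iris PE the test recovered 8% and 90% over 15840 genes. Most simulated differences of 1 were thus missed, and real ones may be missed as well. These rates describe the simulated counts only. In the real data, deviations of single genes from their group mean correlated at 0.18 to 0.43 between libraries of different groups within 1 run. The deviations of both dilated libraries mirror each other, so part of these values is fixed. Raised immediate early members differed between the dilated libraries by a median log2 ratio of 1.18. Recovery and false calls under such spread between libraries were not tested. Alternatives covered DESeq2 1.42.0, RLE and library size scaling, no filter, single libraries left out, a replicate block, the run of library numbers, nuclei thinned to 1000 UMIs and doublets removed with Scrublet (scanpy 1.11.5), which marked 1 to 100 nuclei per library. Leaving out nuclei of a shared barcode was added after the data were seen. Exact binomial intervals cover counting error only.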

Additional observations from a re-analysis of the deposited data

Results flagged for a closer look

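Of 23 of the largest changes, 20 differed between dilator muscle and iris PE in the test of the difference itself (log2 fold change in dilator muscle minus that in iris PE, edgeR interaction). Among the rises the difference was 4.74 for *Nr4a2*, 4.42 for *Hk2*, 3.51 for *Thbs1*, 3.42 for *Egr1*, 2.66 for *Tmem158*, 2.40 for *Fos*, 2.16 for *Btg2*, 1.91 for *Tnfrsf12a* and 1.83 for *Pde10a*, with adjusted p from 2.21e-07 (*Tmem158*) to 0.0372 (*Fos*). Every one of these 9 rose further in dilator muscle. Among the falls it was -2.52 for *Plk5*, -2.52 for *Xrra1*, -1.99 for *Alpl*, -1.87 for *Gucy2f*, -1.81 for *Cracr2a*, -1.71 for *Il1rapl2*, -1.64 for *Adarb2*, -1.54 for *Kif28*, -1.46 for *Emilin3*, -1.30 for *Adamts18* and -1.23 for *Tbxas1*, with adjusted p from 7.31e-10 (*Plk5*) to 0.0366 (*Kif28*). Each of these 11 fell further in dilator muscle. Since the genes were taken for the size of their change in dilator muscle, a larger effect there is partly given by that choice. Among all 2054 transcripts called in dilator muscle the difference was called for 971.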

How the results depend on the processing

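With 1 library left out, called genes numbered 1086 to 1989 (raised 624 to 1033, lowered 462 to 956), and fits with 1 dilated library take its spread from the other groups. Scaling by library size alone gave 726 raised and 1532 lowered, and the run of library numbers as a term gave 3138 calls, of which 1480 lowered. The other alternatives stayed within 1.5 times of the counts with all libraries. For constriction the calls were 2 by library size alone, 9 without the filter, 3 with the run of library numbers and 0 to 7 with 1 library left out, where *Serpina3n* missed the threshold at adjusted p = 0.056 to 0.175 in edgeR. The difference from stroma 2 gave 552 to 1277 calls and that from the iris PE 1062 to 1433 with 1 library left out. Of 278 called genes named by the rule, 186 were called under all 15 alternatives, 10 more under each of those that tested them (thinning and DESeq2 gave no value for some), and none changed sign, while 60 were lost without dilated replicate 2 and 22 by library size alone. Same-numbered libraries did not deviate together in every pair, so the numbers were not taken as pairs. The values are correlations of single genes' deviations from their group mean, not of the levels in the libraries. Untreated with dilated gave 0.23 and 0.19, untreated with constricted 0.26, -0.02 and 0.28, and constricted with dilated 0.43 and -0.03. Libraries of different groups within 1 run of library numbers gave 0.18 to 0.43. The replicate block gave 2619 calls for dilation (*Adra1a* among them, log2 fold change -0.68, adjusted p = 0.0317), 6 for constriction, 1566 for the difference from the iris PE and 1082 for that from stroma 2. The 1604121 UMIs of untreated replicate 1 limit what is seen of transcripts of a few CPM.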

Other observations

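In the exocytosis list 5 of 40 were raised (12.5%, against 7.2% of all genes), among them *Rab3b*, a RAB of secretory vesicles, from 33.7, 51.1 and 50.6 CPM to 264 and 193 CPM (log2 fold change 2.47 ± 0.19 (SE), adjusted p = 1.25e-05), and *Cadps*, which primes dense core vesicles, from 297, 282 and 324 CPM to 1095 and 1087 CPM (log2 fold change 2.05 ± 0.17 (SE), adjusted p = 2.23e-05). Lowered were 4 (10%, against 6.14%), with *Unc13c* at -1.52 ± 0.18 (SE) and *Synpr* at -1.38 ± 0.19 (SE). The unfolded protein response list gave 4 raised (16.7%) and 1 lowered (4.17%) of 24, *Ddit3* at 1.30 ± 0.26 (SE) and the serine synthesis gene *Phgdh* at -1.75 ± 0.25 (SE), with 2 raised without dilated replicate 2.

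Among the largest falls outside these lists, *Tbxas1*, thromboxane A synthase, measured 188, 184 and 181 CPM untreated and 39.3 and 31.1 CPM dilated (log2 fold change -2.20 ± 0.20 (SE), adjusted p = 4.41e-05). *Adarb2*, of the RNA-editing adenosine deaminase family, measured 77.9, 81.2 and 91 CPM untreated and 18.3 and 10.6 CPM dilated (log2 fold change -2.33 ± 0.23 (SE), adjusted p = 5.42e-05). *Gucy2f*, a guanylate cyclase best known from photoreceptors, measured 79.2, 86.1 and 59 CPM untreated and 20.2 and 8.82 CPM dilated (log2 fold change -2.14 ± 0.42 (SE), adjusted p = 0.00499), and *Alpl*, the tissue-nonspecific alkaline phosphatase, 44.9, 58.3 and 66.1 CPM and 10.3 and 13.6 CPM (log2 fold change -2.11 ± 0.28 (SE), adjusted p = 0.000434). In each of these 4 both dilated libraries lay below every untreated library, which the choice of the largest falls required. One constricted library of *Gucy2f*, at 19.7 CPM, also lay below the untreated range.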
